A study of Mus musculus with 34 samples.

Results

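Transcripts of the subunits of oxidative phosphorylation were examined in RNA-seq libraries of pancreatic islets from mice given a beta cell toxin and from untreated mice. The members were the genes of the deposited count table whose names begin as those of the subunits of complexes I to V do (Ndufa, Ndufb, Ndufc, Ndufs, Ndufv, Sdha to Sdhd, Uqcr, Cox4 to Cox8, Atp5 and the mitochondrial mt-Nd, mt-Co, mt-Atp and mt-Cytb). Of 116 such names, 18 pseudogenes or assembly factors were dropped, and genes with under 50 counts over all libraries were left out. This left 96 of the 48709 genes in the table, 83 in the nuclear and 13 in the mitochondrial genome. Cox8b, with 51 counts, was the member nearest the count minimum, and Cox7b2 with 5 counts and Cox8c with 0 fell below it. The name rule also takes in Atp5s and Atp5sl, which by later names (Dmac2l and Dmac2) are related proteins and not core parts of the ATP synthase. Complexes were assigned by name, so that Ndufa4 and Ndufa4l2 were counted with complex I.

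In oxidative phosphorylation, complexes I (NADH dehydrogenase) and II (succinate dehydrogenase) pass electrons through ubiquinone to complex III (the cytochrome bc1 complex) and by cytochrome c to complex IV (cytochrome c oxidase). The protons pumped on the way drive complex V, the ATP synthase. In beta cells the ATP made this way from glucose closes potassium channels and so triggers insulin release. All complexes but II combine nuclear-encoded subunits with a few that are transcribed inside the mitochondrion.

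All mice carried the genotype label RIP-DTR HTZ, controls included: beta cells bear the diphtheria toxin (DT) receptor under a rat insulin promoter. DT-treated mice were sampled at times labelled 5 DPA (n = 4) and 30 DPA (n = 4), beside untreated mice without a time or diet label (CTRL, n = 3). The 10-week groups were kept on diets labelled SD or HFD. Untreated mice numbered 3 on SD (CTRL SD) and 4 on HFD (CTRL HFD), DT-treated mice 4 (DT SD) and 3 (DT HFD), and mice treated with streptozotocin, another beta cell toxin, at 75 mg/kg 4 on each diet (STZ SD, STZ HFD). The labels do not expand DPA, SD or HFD, give no age, and do not say that libraries of a group are separate animals, so that p-values measure the spread between these libraries. Islets are mixtures, and fewer cells of a type cannot be told apart here from less RNA per cell.

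Total counts ran from 11083117 to 18918348 in 33 libraries, and the labelled tissue was borne out by beta cell markers, 36580 to 279023 CPM (counts divided by a library's total in units of 1e6, summed over the 11 of 12 listed genes in the table). RNA of other tissues varied between libraries. Summed markers of enterocytes (13 genes, all tested, none at 0 throughout) came to 2172 to 21253 CPM in 8 libraries, which were CTRL replicate 2, DT 5 DPA replicates 1, 2 and 4, DT 30 DPA replicate 2, DT HFD replicate 1 and STZ SD replicates 1 and 4, and to at most 378 CPM in the others. Acinar markers (23 genes) held 54.0% of the counts of STZ HFD replicate 4 and over 20% in STZ SD replicate 3, CTRL SD replicate 3 and DT SD replicate 4. For the comparisons that these libraries enter, medians, calls or fold changes of members without them are given beside the main values.

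Of the members, 95 passed the low-count filter of the test, all but Cox8b, the muscle-type subunit 8 of complex IV. Levels between genes were compared as TPM, the authors' length-scaled transcript values, as medians over 33 libraries. The mitochondrially encoded transcripts stood far above the rest, from 2470 TPM for mt-Nd5 to 18518 TPM for mt-Co2. Nuclear subunits of complex I had a median of 65.5 TPM (from Ndufb2 at 8.55 to Ndufa1 at 319), those of complex II 63.4, of complex III 103, of complex IV 111 and of complex V 102 (up to Atp5l at 446). Within complex IV the isoforms found in most tissues were the abundant ones: Cox4i1 stood at 201 TPM against 5.08 for Cox4i2, Cox6a1 at 278 against 23.5 for Cox6a2, Cox7a2 at 134 against 2.64 for Cox7a1, and Cox6b1 at 307 against 2.34 for the testis-type Cox6b2. Of the genes for the c-ring of the ATP synthase, Atp5g3 (146 TPM) and Atp5g2 (102 TPM) exceeded Atp5g1 (26.5 TPM).

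**Figure D1:**
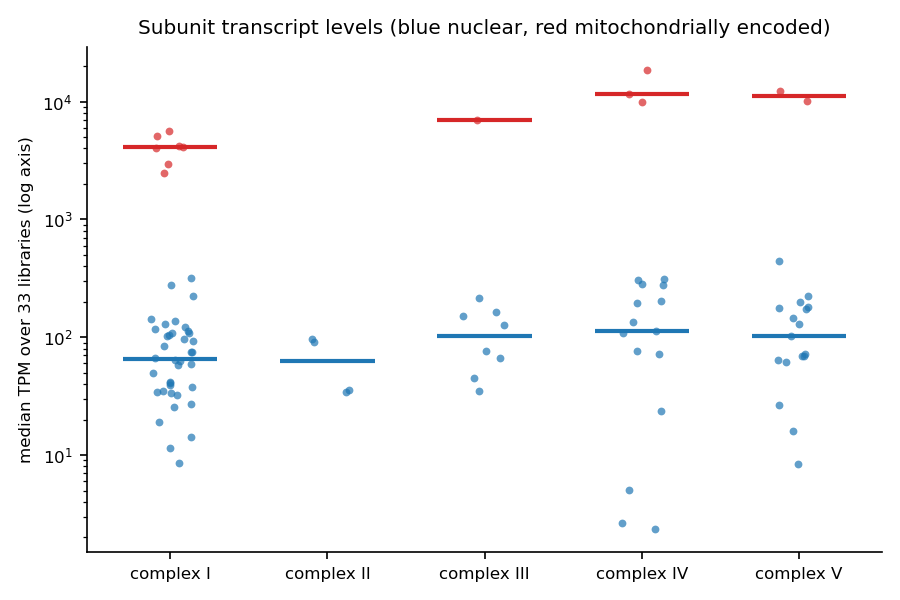
Median TPM of each subunit gene over 33 libraries (log axis) by complex, nuclear genes in blue and mitochondrially encoded genes in red, with lines at the median of each set. Every mitochondrially encoded gene lies above every nuclear one, and the lowest points of complex IV are tissue-restricted isoforms; Cox8b, at a median of 0 TPM, is not drawn.

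Nuclear subunit genes are known targets of the factors NRF1 and GABP (an ETS factor), so their start regions were searched on both strands for GCGCANGCG (NRF1) and CCGGAAG (ETS). Of the 83 nuclear members, 66 had a window of 300 bases around the start in RefSeq (GRCm38.p6). The NRF1 letters stood in 20 of them (30.3%), against 7.03% of the windows of 27025 genes, and the ETS letters in 16 (24.2%, against 9.93%). YY1 (GCCATNTTG) stood in 15.2% against 2.90%, and the CCAAT box, a general promoter element, in 42.4% against 41.1%. The NRF1 letters stood in 8 of 33 windows of complex I, 2 of 3 of complex II, 2 of 5 of complex III, 7 of 13 of complex V and 1 of 12 of complex IV (Cox6a1). A match is a description of the letters and not a measured site. Stretches upstream of 3 starts, outside all annotated exons, are shown because Atp5l was called in a comparison below and Sdha and Uqcrh, chosen after their values were seen, had values of opposite sign in STZ HFD. All are on the minus strand and written 5′ to 3′ along the gene, with matches in capitals: Atp5l at chr9:44920752-44920992 with an NRF1 and an ETS match, Sdha at chr13:74350281-74350308 with an NRF1 match, and Uqcrh at chr4:116075072-116075268 with an ETS match 10 bases before the start.
Atp5l: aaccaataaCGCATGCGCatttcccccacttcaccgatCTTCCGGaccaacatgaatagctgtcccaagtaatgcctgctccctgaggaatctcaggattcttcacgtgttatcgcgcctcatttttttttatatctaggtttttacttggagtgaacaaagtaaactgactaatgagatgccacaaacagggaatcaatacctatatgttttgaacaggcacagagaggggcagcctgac
Sdha: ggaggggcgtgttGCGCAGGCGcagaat
Uqcrh: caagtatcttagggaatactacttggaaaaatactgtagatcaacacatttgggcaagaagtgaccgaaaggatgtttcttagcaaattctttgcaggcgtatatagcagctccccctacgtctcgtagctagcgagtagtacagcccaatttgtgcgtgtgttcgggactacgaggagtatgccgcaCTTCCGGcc

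Across libraries the nuclear and the mitochondrially encoded members did not keep a fixed ratio. Nuclear members took 0.345% to 1.16% of all counts and mitochondrially encoded ones 3.25% to 6.53%, so that the second exceeded the first by 3.60 to 10.0 times. The group mean of this ratio was lowest at 5 DPA, with 4.18, 3.60, 5.08 and 3.89 in the 4 libraries, and highest in CTRL HFD, with 9.43, 8.50, 8.06 and 10.0. These 2 groups did not overlap, but they were picked as the extremes of the group means. They also differ in toxin, time and diet label. Replicates 1, 2 and 4 at 5 DPA carried enterocyte markers, and no CTRL HFD library did above the limit. The highest nuclear shares were all in libraries with enterocyte markers: 1.16% in DT 5 DPA replicate 2, 1.01% in CTRL replicate 2, and 0.977% and 0.946% in STZ SD replicates 4 and 1. On the scale used for testing, CPM after TMM scaling of library sizes, STZ HFD replicate 4 was not low (mean log2 CPM of nuclear members 6.00) although its share was the lowest of all, and its TMM factor was 0.464.

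**Figure D2:**
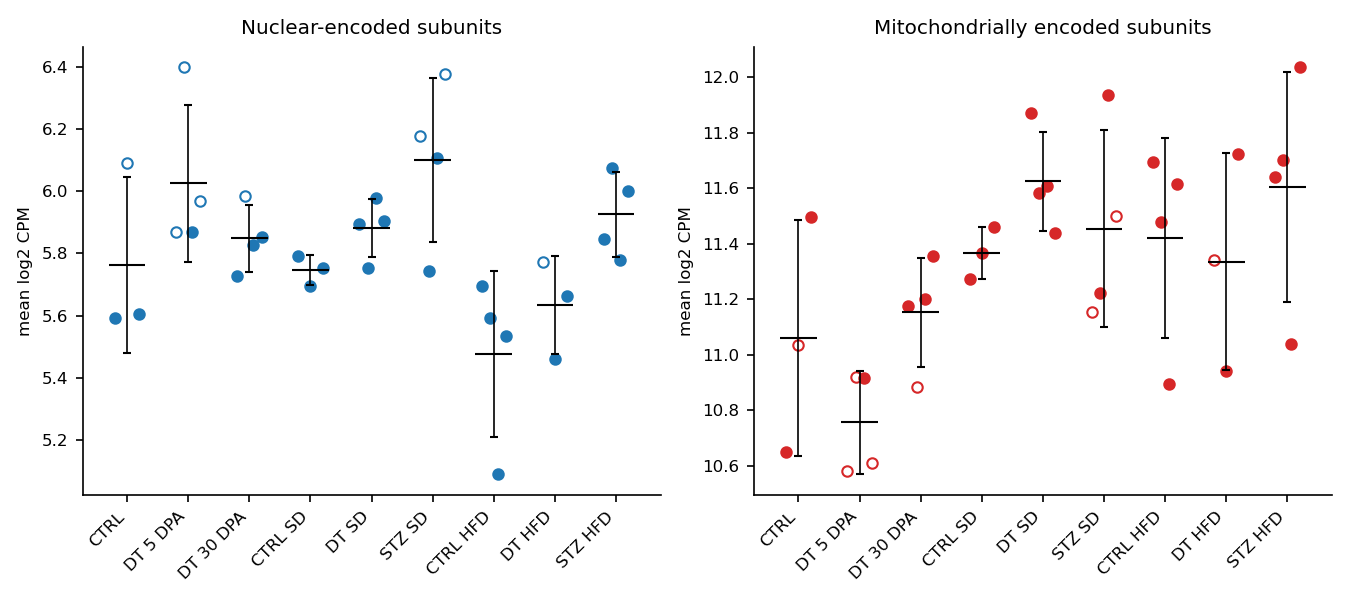
Mean log2 CPM (TMM-scaled) of the 82 tested nuclear and the 13 mitochondrially encoded members in each library, by group, with bars for the mean ± SD over libraries; open symbols are the 8 libraries with enterocyte markers above 500 CPM. The 3 highest nuclear values are open symbols, and the CTRL HFD libraries (5.09 to 5.69) lie below all STZ HFD libraries (5.78 to 6.07).

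Early after toxin, at 5 DPA against CTRL, no member passed edgeR's quasi-likelihood test at an adjusted p below 0.05, whereas 5.39% of all genes did. At an unadjusted p below 0.05 there were 15 of 95, 12 higher and 3 lower, against 19.1% of all genes, and DESeq2's Wald test called 4. The 2 genomes lay on opposite sides of 0: the median log2 fold change was 0.25 over nuclear members, 74 of 82 above 0, and -0.31 over mitochondrially encoded ones, 0 of 13 above 0, with -0.05 over all genes. Values of a fixed list of nuclear subunits of the complexes are given here (the listed subunits). Among them Ndufv1 of complex I, which binds NADH, stood at 0.25 ± 0.18 (log2 fold change ± SE). Sdhb stood at 0.43 ± 0.26, Cox5b at 0.35 ± 0.17 and Atp5b, the catalytic subunit of the ATP synthase, at 0.22 ± 0.23. Cox4i1 stood at 0.25 ± 0.21, Uqcrc1 at 0.24 ± 0.28 and Uqcrfs1 at 0.19 ± 0.26. Nearer 0 were Ndufs3 (0.15 ± 0.14), Atp5a1 (0.13 ± 0.21), Ndufs1 (0.02 ± 0.16) and Sdha (-0.04 ± 0.21). Each of these listed subunits had an adjusted p of 0.269 or more. Without CTRL replicate 2, 11 members were called, all higher, and the nuclear median was 0.45. With all enterocyte libraries left out, which leaves 1 library at 5 DPA and 2 of CTRL, it was 0.30 and the mitochondrial median was -0.20. Other cell types moved with this comparison: myeloid markers (13 genes) summed to 6095 to 9099 CPM at 5 DPA against 870 to 2283 CPM in CTRL, and mesenchymal markers (8 genes) to 3739 to 4484 against 934 to 1555 CPM, without overlap. Their part in the result was not tested.

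From 5 to 30 DPA, 9 of 95 members were called, 4 higher and 5 lower at 30 DPA, a share below the 30.5% of all genes called in this comparison. Cox6a2, the heart and skeletal muscle form of subunit 6a (chromosome 7, 128205435 to 128206387), stood at 3.41, 5.79, 6.94 and 4.47 CPM at 5 DPA and at 12.7, 9.52, 15.0 and 11.9 CPM at 30 DPA. All 4 later libraries lay above all 4 earlier ones, and the CTRL libraries (5.61, 2.04 and 8.54 CPM) lay with the earlier ones. Its log2 fold change was 1.26 ± 0.44 (adjusted p = 0.0302), while its partner Cox6a1 had -0.30 ± 0.23 (adjusted p = 0.328). Atp5s was at 4.13, 4.73, 4.73 and 3.28 CPM at 5 DPA and at 8.45, 5.69, 6.97 and 7.57 CPM at 30 DPA, again without overlap, a rise of 0.77 ± 0.21 on the log2 scale (adjusted p = 0.0073). Here CTRL (5.96, 6.53 and 7.93 CPM) lay with the later libraries. The proton-pumping subunit mt-Nd5 of complex I rose from 1494 ± 166 to 2423 ± 319 CPM (SD, n = 4 each) with no overlap, by 0.70 ± 0.24 (adjusted p = 0.0298), and Cox7a2l, a factor that ties complexes III and IV together, by 0.31 ± 0.12 with overlap (adjusted p = 0.0442).

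The 5 members that fell were subunits of complexes IV and V. Cox5a, a subunit of complex IV on chromosome 9 (57521274 to 57532426), read 53.9, 82.4, 41.3 and 58.6 CPM at 5 DPA and 28.2, 41.3, 29.3 and 28.1 CPM at 30 DPA. In each group the enterocyte-bearing replicate 2 was the highest, and the ranges touched at 41.3 CPM. Cox5a fell by 0.90 on the log2 scale (SE 0.31, adjusted p = 0.0307) and Cox5b by 0.48 (SE 0.16, adjusted p = 0.0256). In the ATP synthase, Atp5o of the peripheral stalk fell by 0.66 (SE 0.25, adjusted p = 0.0472), from 133 ± 28.9 to 84.6 ± 19.6 CPM with no overlap. Atp5f1, subunit b of the same stalk, fell by 0.44 (SE 0.17, adjusted p = 0.0495) and Atp5g2 of the c-ring by 0.26 (SE 0.09, adjusted p = 0.0301). Other cell types moved with these values: myeloid markers summed to 6095 to 9099 CPM at 5 DPA and 615 to 1236 CPM at 30 DPA, mesenchymal markers to 3739 to 4484 and 888 to 1324 CPM, alpha cell markers (8 genes) to 11592 to 16542 and 30047 to 40448 CPM, beta cell markers to 38729 to 126442 and 144157 to 279023 CPM, and enterocyte markers exceeded 500 CPM in 3 of 4 libraries at 5 DPA and in 1 of 4 at 30 DPA. Without the enterocyte libraries, which leaves 1 library at 5 DPA and 3 at 30 DPA, Atp5s stood at 0.68, Cox6a2 at 0.92 and Cox5a at -0.54. So few libraries cannot show whether the calls depend on enterocyte RNA. The part of myeloid, mesenchymal, alpha and beta cell content in these differences was not tested.

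At 30 DPA against CTRL no member was called by edgeR or DESeq2 (0.233% of all genes by edgeR). At an unadjusted p below 0.05 there were 7, 5 higher and 2 lower, against 25.3% of all genes. Among the higher were Cox6a2 at 1.19 ± 0.48 and Ndufa1, a small membrane subunit of complex I, at 0.53 (adjusted p = 0.122 and 0.108). The 2 lower were nuclear members set with complex V by name. The nuclear median was 0.07, with 53 of 82 above 0, and the mitochondrial one 0.04. Without the enterocyte libraries they were 0.19, with 73 of 82 above 0, and 0.12, and no member was called. Comparisons with 5 DPA and with CTRL share libraries, so that their values are not independent of each other.

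Among other genes of the pathway, calls between 5 and 30 DPA are to be read beside the 30.5% of all genes called. Of 19 genes of the citric acid cycle and its inputs, Pcx (pyruvate carboxylase, which refills the cycle in beta cells) rose by 1.03 and Idh3b fell by 0.37 on the log2 scale. Of 22 genes of electron carriers and mitochondrial carriers 2 rose, among them the ADP/ATP carrier Slc25a4 (0.63, adjusted p = 0.00423), and the uncoupling protein gene Ucp2 fell by 0.98 (adjusted p = 0.00564). Of 42 assembly factors 3 rose, among them Ttc19 of complex III (0.50), and Coa5 of complex IV fell by 0.43. Of 19 tested genes of mitochondrial DNA expression Lrpprc, which stabilises mitochondrial mRNAs, rose by 0.50 (adjusted p = 0.00129), and 2 fell, among them the translation factor Tufm (-0.46). Of 12 regulators 2 rose, among them Nfe2l1 (0.52), and 3 fell, among them Hif1a (-0.63). The share called was thus 41.7% of the regulators and at most 15.8% of each other list. With the enterocyte libraries left out, 1 library remains at 5 DPA and 3 at 30 DPA, too few to judge these calls without them. Myeloid, mesenchymal, alpha and beta cell markers differed between these groups, as given above, and their part in these calls was not tested.

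At 10 weeks on the SD diet, no member of the STZ group passed edgeR's test against CTRL SD, where 0.00568% of all genes did. At the unadjusted level most differences were above 0: 40 members had an unadjusted p below 0.05, 39 of them higher, against 11.3% of all genes, and DESeq2 called 7, all higher. The nuclear median was 0.40 and the mitochondrial one 0.13, against 0.02 over all genes. Atp5o had the smallest adjusted p (0.0984) at 1.09 ± 0.28, with 65.2, 70.0 and 72.7 CPM in CTRL SD and 190, 74.4, 108 and 215 CPM in STZ SD. Uqcrfs1, the Rieske iron-sulfur protein of complex III, read 45.0, 43.8 and 44.3 CPM against 105, 41.3, 57.6 and 120 CPM, and its core protein Uqcrc1 72.9, 68.2 and 74.6 against 152, 70.6, 69.5 and 188 CPM. In each case the 2 high values of STZ SD were replicates 1 and 4, the libraries with 13584 and 21253 CPM of enterocyte markers, replicate 2 lay near or among the controls, and replicate 3 lay above them for Atp5o and Uqcrfs1. Without the enterocyte libraries the nuclear median was 0.19, the mitochondrial one 0.27 and Uqcrc1 stood at -0.04. With the acinar-rich libraries also left out, which leaves 1 STZ SD and 2 CTRL SD libraries, the medians were -0.02 and -0.09, and 0 of 13 mitochondrially encoded members were above 0, against 9 of 13 with all libraries.

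On the HFD diet the STZ libraries held no enterocyte RNA above the limit, and 2 of 95 members were called against CTRL HFD, both higher, where 0.471% of all genes were called. Atp5g2, one of the c-ring genes (chromosome 15, 102662864 to 102672352), stood at 88.1, 78.7, 63.1 and 77.6 CPM in CTRL HFD and at 101, 113, 93.1 and 104 CPM in STZ HFD. All 4 STZ libraries lay above all 4 controls, with means of 76.9 ± 10.3 and 103 ± 8.43 CPM (SD, n = 4 each). The rise was 0.42 ± 0.09 on the log2 scale (adjusted p = 0.0393). Ndufa3, an accessory membrane subunit of complex I (chromosome 7, 3617373 to 3620327), stood at 46.5, 41.8, 22.5 and 34.8 CPM in CTRL HFD and 56.7, 74.4, 56.4 and 69.3 CPM in STZ HFD, again with no overlap. It rose by 0.82 ± 0.18 (adjusted p = 0.041). In CTRL SD the same gene read 54.9, 53.7 and 51.0 CPM, close to the lower STZ HFD libraries, and Atp5g2 read 91.2, 96.0 and 91.3 CPM.

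Beyond these, 51 members had an unadjusted p below 0.05 in STZ HFD against CTRL HFD, all of them higher, against 13.7% of all genes in either direction, and DESeq2 called 23, all higher. The nuclear median was 0.45, with 78 of 82 above 0, and it was 0.45 in complex I, 0.48 in III, 0.57 in IV and 0.40 in V, but 0.19 in complex II. The mitochondrially encoded median was 0.22, or 0.05 without the enterocyte and acinar-rich libraries, and that of all genes 0.02. Alpha cell markers summed to 31901 to 43907 CPM in CTRL HFD and 6789 to 28830 CPM in STZ HFD, without overlap, and their part in these differences was not tested. Cox4i1, the main subunit 4 of complex IV, read 178, 130, 104 and 134 CPM in CTRL HFD and 203, 302, 182 and 259 CPM in STZ HFD without overlap, at 0.79 ± 0.20 (adjusted p = 0.0587). Uqcrh, the hinge protein of complex III whose upstream letters are printed above, read 107, 101, 73.2 and 83.5 against 126, 210, 124 and 175 CPM, also without overlap, at 0.80 ± 0.19 (adjusted p = 0.0544).

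Apart from Cox4i1, the listed nuclear subunits of the complexes lay on both sides of 0. Sdha, the flavoprotein of complex II, read 199, 217, 197 and 184 CPM in CTRL HFD and 183, 140, 184 and 151 CPM in STZ HFD, at -0.28 ± 0.19 (adjusted p = 0.569). Below 0 were also Ndufs1, the largest iron-sulfur subunit of complex I, at -0.21 ± 0.14, and Atp5a1 at -0.11 ± 0.20. Above 0 were Atp5b at 0.07 ± 0.21, Ndufv1 at 0.12 ± 0.16, Ndufs3 at 0.15 ± 0.13, Cox5b at 0.21 ± 0.16, Uqcrfs1 at 0.36 ± 0.24 and Sdhb at 0.40 ± 0.24. Uqcrc1 read 72.3, 67.0, 60.5 and 62.5 CPM in CTRL HFD and 75.6, 74.6, 76.7 and 79.8 CPM in STZ HFD, without overlap, at 0.22 ± 0.26. None of these 10 had an unadjusted p below 0.05. Cox4i1, also of that list and given above, did, as did the small subunits Cox7a2 (0.70 ± 0.21) and Ndufa4 (0.65 ± 0.19). Whether the listed and the other subunits differed from each other was not tested.

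Each replicate weighed on the calls. Leaving out STZ HFD replicate 2 or 4 or CTRL HFD replicate 3, 4 or 5 gave 0 calls, leaving out STZ HFD replicate 1 or CTRL HFD replicate 2 gave 9, and leaving out STZ HFD replicate 3 gave 15. CTRL HFD replicate 4, the lowest library for nuclear members, had 49207 CPM of beta cell markers, the fewest of its group, and without it the nuclear median was 0.33. STZ HFD replicate 4 was the acinar-rich library, and without it the median was 0.44 and Atp5g2 and Ndufa3 were not called. A fit with the acinar score as a covariate called 4, and a fit without the enterocyte libraries of other groups called 6. As shares of all counts the groups overlapped: nuclear members took 0.594%, 0.632%, 0.532% and 0.523% in CTRL HFD and 0.746%, 0.874%, 0.579% and 0.345% in STZ HFD.

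**Figure D3:**
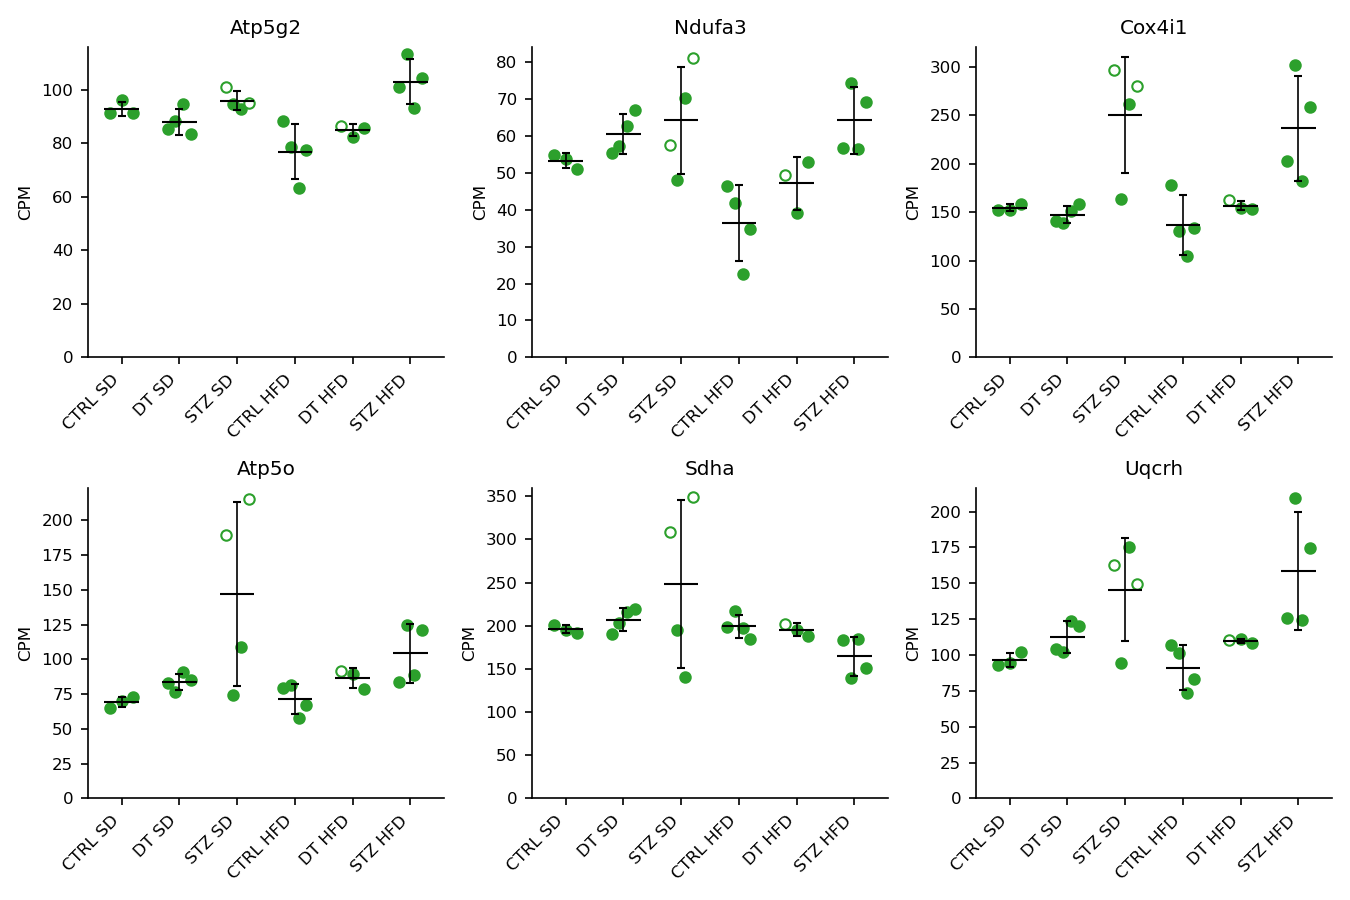
CPM (TMM-scaled) of 6 nuclear subunit genes in each library of the 6 groups at 10 weeks, with bars for the mean ± SD; open symbols are libraries with enterocyte markers above 500 CPM. Atp5g2 and Ndufa3, the genes called in STZ HFD against CTRL HFD, do not overlap between those groups, and for Atp5o and Sdha the highest STZ SD points are open symbols.

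No gene of the other pathway lists was called in either STZ comparison. In STZ HFD against CTRL HFD the medians were -0.03 over 19 genes of the citric acid cycle, 0.16 over 22 carrier genes, 0.21 over 42 assembly factors, 0.07 over 19 genes of mitochondrial DNA expression and -0.03 over 12 regulators. In STZ SD against CTRL SD they were 0.21, 0.48, 0.12, 0.03 and -0.06, and without the enterocyte and acinar-rich libraries -0.07, 0.05, 0.03, -0.06 and -0.07. STZ HFD against STZ SD gave no called member by edgeR or DESeq2 (0.136% of all genes by edgeR) and 15 at an unadjusted p below 0.05, 14 of them lower (13% of all genes). All 4 subunits of complex II were among these, from -0.52 to -0.66, and without the enterocyte libraries none of 95 members remained below that p.

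At 10 weeks after DT no member was called against untreated mice on the same diet. DT SD against CTRL SD gave 0 calls (0.0341% of all genes), 1 member at an unadjusted p below 0.05 (7.95% of all genes) and a nuclear median of 0.15. That member was Ndufc1, an accessory subunit of complex I, at 0.58 (adjusted p = 0.472). DT HFD against CTRL HFD gave 0 calls (0.00568% of all genes), 0 members at an unadjusted p below 0.05 (11.9% of all genes) and a nuclear median of 0.14, or 0.07 without DT HFD replicate 1 and the other enterocyte libraries. DESeq2 called none in either comparison.

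The diet alone gave no call. In CTRL HFD against CTRL SD 0% of all genes passed, and 12 members had an unadjusted p below 0.05, all lower in HFD, against 2.49% of all genes. Among them were Ndufa3 (-0.55 ± 0.19) and Atp5g2 (-0.27 ± 0.10), the same 2 genes that were higher in STZ HFD than in CTRL HFD, and both comparisons share the CTRL HFD libraries. The nuclear median was -0.24, or -0.12 without CTRL HFD replicate 4, and the mitochondrial one 0.10. DESeq2 called none.

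In DT mice 11 of 95 members were called between the diets, 1 higher and 10 lower in DT HFD than in DT SD, below the 23.5% of all genes called. The largest falls were in 2 paralogs known as hypoxia-inducible forms. Cox4i2, the alternative subunit 4 of complex IV (chromosome 2, 152754173 to 152765037), read 2.79, 2.44, 2.61 and 3.16 CPM in DT SD and 1.88, 0.598 and 0.973 CPM in DT HFD. Ndufa4l2, the inducible relative of Ndufa4 (chromosome 10, 127514967 to 127517154), read 10.9, 8.77, 8.33 and 6.60 CPM and then 5.35, 3.65 and 4.44 CPM. Neither overlapped between the diets, and they fell by 1.25 (SE 0.41, adjusted p = 0.0295) and 0.95 (SE 0.29, adjusted p = 0.0202) on the log2 scale. Their partners did not pass, with Cox4i1 at 0.09 ± 0.21 and Ndufa4 at -0.16 ± 0.21. In CTRL mice Ndufa4l2 read 7.89, 9.76 and 8.92 CPM on SD and 5.23, 5.78, 5.87 and 5.82 CPM on HFD, a similar step without a call (-0.64 ± 0.28). In STZ mice it went the other way, at 0.55 in STZ HFD against STZ SD, also without a call.

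The other falls were mostly accessory subunits of complex I. Ndufv3, of the NADH-binding module (chromosome 17, 31520115 to 31531331), read 103, 85.6, 102 and 96.5 CPM in DT SD and 69.5, 43.8 and 70.0 CPM in DT HFD, a fall of 0.66 (SE 0.16, adjusted p = 0.00718). Ndufa1 read 105, 79.7, 102 and 84.0 against 63.6, 42.4 and 67.5 CPM and fell by 0.68 (SE 0.20, adjusted p = 0.0195). Ndufc1 read 46.3, 37.9, 50.5 and 42.7 against 31.8, 21.3 and 31.0 CPM and fell by 0.66 (SE 0.20, adjusted p = 0.0215). In all of these DT HFD replicate 2 was the lowest library and the diets did not overlap. Atp5l, subunit g in the membrane part of the ATP synthase, fell by 0.66 (SE 0.23, adjusted p = 0.0384), from 159 ± 27.4 (SD, n = 4) to 101 ± 22.6 CPM (n = 3). It lies beside an antisense gene, and without the strand setting of the counting its reads cannot be told apart from that gene's. The remaining falls, outside the rule for named genes, were Ndufa7, Ndufb11, Uqcrb and Cox7a2l, at -0.58 to -0.41. The 1 rise was Atp5sl, from 16.9, 25.4, 13.4 and 30.8 to 35.9, 38.3 and 43.1 CPM (0.85 ± 0.25, adjusted p = 0.0184).

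No nuclear subunit of the fixed list was called between the diets. Ndufs3 of complex I read 56.1, 51.1, 51.6 and 51.6 CPM in DT SD and 49.2, 37.0 and 46.2 CPM in DT HFD, without overlap, at -0.25 ± 0.14 (adjusted p = 0.173). Sdha (-0.08 ± 0.21), Uqcrc1 (0.13 ± 0.28), Cox5b (-0.06 ± 0.17), Atp5a1 (0.01 ± 0.21) and Atp5b (0.03 ± 0.23) were nearer 0, and the nuclear median was -0.24. Whether these listed subunits and the other subunits differed from each other was not tested. With complexes set by name, complex I had a median of -0.30 and 6 of its 38 nuclear members called, Ndufa4l2 among them. Complex V had 2 of 17 called, Atp5l and Atp5sl. All 13 mitochondrially encoded members were below 0, from -0.40 to -0.13, and none was called. Without DT HFD replicate 2, 0 calls were left, with fewer libraries in the group. This library had the fewest beta cell markers of all 33, 36580 CPM against 115115 and 122451 CPM in DT HFD replicates 1 and 3. Cell content differed in the same direction in every library: beta cell markers summed to 181326 to 241984 CPM in DT SD and 36580 to 122451 CPM in DT HFD, acinar markers to 71903 to 240729 and 16064 to 44939 CPM, lymphocyte markers (15 genes) to 200 to 1451 and 3260 to 10826 CPM, and myeloid markers to 243 to 715 and 782 to 1672 CPM. With the acinar score as a covariate 2 members were called. Without the enterocyte library DT HFD replicate 1 and those of other groups there were 22, of which 21 were lower, with Cox4i2 at -1.80 and Ndufa4l2 at -1.10. The part of beta cell, lymphocyte and myeloid content was not tested.

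**Figure D4:**
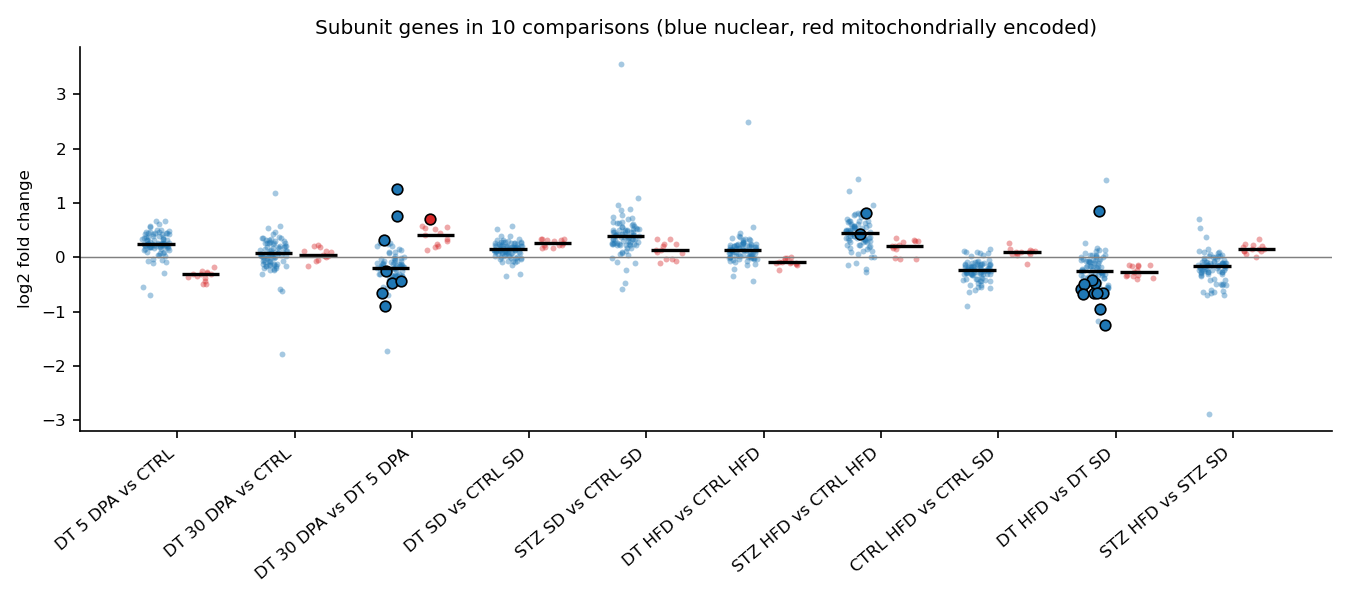
Log2 fold change of each tested member in 10 comparisons, nuclear in blue and mitochondrially encoded in red, with lines at the medians and outlined points for genes called at an adjusted p below 0.05. Nuclear medians reach 0.40 and 0.45 in the STZ comparisons, and calls occur in DT 30 DPA against DT 5 DPA (9), STZ HFD against CTRL HFD (2) and DT HFD against DT SD (11).

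Several factors that act on these genes were called higher in DT HFD than in DT SD. Of 12 regulators 6 were called higher and 1 lower. The rises included Gabpb1, a subunit of GABP (0.87, adjusted p = 0.00505), the coactivator Pprc1 (0.78, adjusted p = 0.00845) and, outside the naming rule, Nrf1 (0.69, adjusted p = 0.0101), Gabpa (0.36), Yy1 (0.31) and Hif1a (0.52), and Nfe2l1 was at -0.40. Of 19 genes of mitochondrial DNA expression 3 rose, among them the polymerases Polg (0.73, adjusted p = 0.0085) and Polrmt (0.59, adjusted p = 0.00866). Of 19 citric acid cycle genes 3 fell, led by Pcx (-1.20, adjusted p = 0.0122) and the pyruvate dehydrogenase subunit Pdhb (-0.36). Of 42 assembly factors 1 rose and 3 fell, among them Coa3 of complex IV (-0.69) and Uqcc1 of complex III (-0.42). Of 22 carrier genes Ucp2 (0.84) and the ubiquinone synthesis gene Coq6 (0.45) rose. These lists, too, are to be read beside 23.5% of all genes called. With the enterocyte libraries left out, 6 regulators were called higher and 1 lower, while of the carrier genes 2 were called higher and 4 lower. Beta cell, lymphocyte and myeloid markers differed between these groups, as given above, and their part in the calls of these lists was not tested. Calls of these lists without DT HFD replicate 2 are not given.

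Whether the response to either toxin differed between the diets was tested directly, and no member was called by edgeR or DESeq2 for DT (0% of all genes) or for STZ (0%). At an unadjusted p below 0.05 there was 1 member for DT, Atp5sl at 0.76 (15.6% of all genes), and 5 for STZ (6.60% of all genes): Ndufa4l2 at 1.19, Ndufa3 at 0.55 and Atp5g2 at 0.37 on the positive side, Sdha at -0.62 and Ndufs1 at -0.49 on the other. The nuclear median for STZ was 0.07, or 0.23 without the enterocyte libraries. The adjusted p-values of these genes were 0.312 for Atp5sl and at least 0.659 for the rest.

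Among tissue-restricted isoforms Cox7a1, the heart and muscle form of subunit 7a (chromosome 7, 30184144 to 30186078), was high in single libraries of several groups. It read 17.4 CPM in DT 5 DPA replicate 2, 16.5 in CTRL replicate 2, 12.2 and 9.59 in STZ SD replicates 4 and 1, 5.81 in DT 30 DPA replicate 2, 4.71 in DT HFD replicate 1 and 3.28 in DT 5 DPA replicate 1. All of these have enterocyte markers above 500 CPM. DT 5 DPA replicate 4, which has them too, read 1.91 CPM, and every library without them lay at or below 1.97 CPM. Markers of brown fat and muscle, the tissues known for Cox7a1, summed to 0.634 to 5.22 CPM over 33 libraries, with Ckmt2 at 0 throughout. Its log2 fold changes (3.55 ± 1.32 in STZ SD against CTRL SD, -2.88 ± 1.12 in STZ HFD against STZ SD) were not called. Without the enterocyte libraries the first was 0.63. The common form Cox7a2 was at 0.37 ± 0.23 and -0.10 ± 0.21.

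Cox6a2 had a different pattern, low in CTRL (5.40 ± 3.26 CPM, SD, n = 3) and at 5 DPA (5.15 ± 1.54, n = 4) and higher at 30 DPA (12.3 ± 2.27, n = 4), in CTRL SD (14.2 ± 1.50, n = 3) and in DT SD (16.2 ± 7.66, n = 4). Between the diets in DT mice it was at -1.18 ± 0.47 (adjusted p = 0.0692). STZ HFD replicate 3 stood apart at 19.8 CPM from the other 3 libraries at 5.49 to 6.28 CPM.

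**Figure D5:**
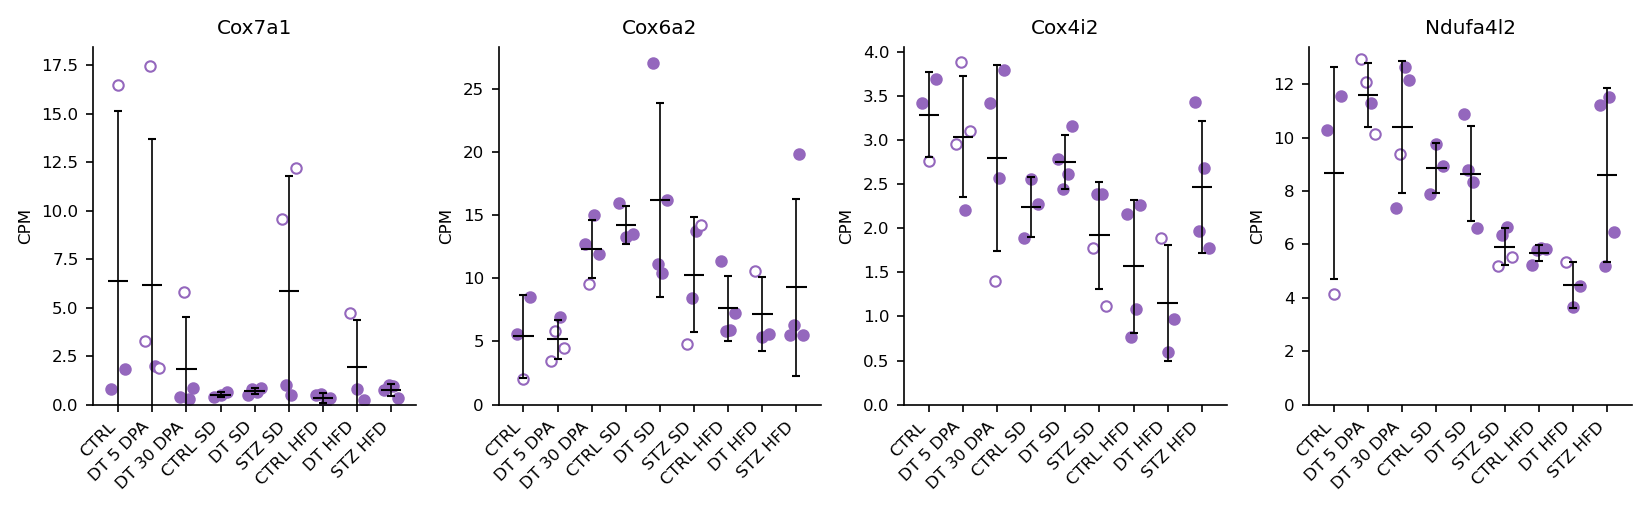
CPM (TMM-scaled) of 4 tissue-restricted or inducible isoforms in each library by group, with bars for the mean ± SD; open symbols are the 8 libraries with enterocyte markers above 500 CPM. The high Cox7a1 points, 3.28 to 17.4 CPM, are open symbols, and Ndufa4l2 and Cox4i2 are lower in DT HFD than in every DT SD library.

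The 13 mitochondrially encoded members lay on the same side of 0 in several comparisons, but not, for example, in STZ SD against CTRL SD (-0.11 to 0.35). At 5 DPA against CTRL they ran from -0.49 to -0.19, and mt-Co1, the catalytic subunit of complex IV, read 6083, 9025 and 10358 CPM in CTRL and 7430, 8654, 7116 and 6621 CPM at 5 DPA. The control range enclosed the later one. mt-Cytb of complex III read 2651, 3357 and 5022 CPM and then 2375, 3155, 3229 and 2550 CPM, and CTRL replicate 3 was the highest library in both genes. Without it the median of the 13 was -0.09. From 5 to 30 DPA all 13 were above 0, from 0.13 to 0.70 with a median of 0.42, and mt-Nd5 alone was called. In DT SD against CTRL SD they ran from 0.18 to 0.35 and in DT HFD against DT SD from -0.40 to -0.13, with adjusted p-values of at least 0.24. The end of mt-Nd5 overlaps mt-Nd6 on the other strand, and mt-Atp8 overlaps mt-Atp6 and mt-Nd4l overlaps mt-Nd4 on the same strand, so that the counts of these neighbours are not fully separate. Nuclear copies of mitochondrial and subunit genes may also share reads with them.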

How the data were processed

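Total RNA of pancreatic islets was extracted with an RNeasy Mini kit and made into libraries with the QIAseq stranded mRNA kit, per the labels' protocols. The authors deposited 1 table with total counts per gene (whole numbers, not normalized) and TPM (length-scaled values) for 34 libraries, per the file headers. Its RPKM and CPM columns were not used. Reads were placed on mm10, per the submitters' processing notes. Aligner, counter and strand setting: not given in the sources used here. Groups were taken from the labels; 1 library whose title says control and whose treatment says DT was put in no group. Coordinates are from GENCODE M21, which held 99.26% of the table's gene IDs, and promoter windows from RefSeq.

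Genes were kept by edgeR's filterByExpr (minimum count 10, total 15), scaled by TMM (factors 0.464 to 1.25) and tested in 1 fit over 33 libraries by edgeR 4.0.16 (R 4.3.3), with the robust quasi-likelihood F test and Benjamini-Hochberg adjustment over 17616 genes, and called at an adjusted p below 0.05. The script was tested on simulated data. CPM were divided by TMM-scaled library sizes, whereas shares of counts and sums of markers are unscaled. Log2 fold changes are given with their SE. No 2 libraries of a group agreed within sampling noise (smallest chi-square per degree of freedom 25.7).

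The members and lists were chosen with earlier results of these data known. Named genes were, per comparison, up to 6 largest called rises and falls and a fixed list of nuclear subunits of each complex. The mitochondrially encoded genes, isoform pairs and up to 2 called genes per pathway list were named too. Exceptions are said to be so or had the smallest adjusted p or an unadjusted p below 0.05. Alternatives were DESeq2 1.42.0, other scalings and filters, a replicate block, an acinar covariate, the compared groups alone and libraries left out. Leaving out the enterocyte libraries alone was chosen after seeing the data.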

Additional observations from a re-analysis of the deposited data

Results flagged for a closer look

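In groups of 4 libraries, 1 library stood far from the others, by Dixon's gap ratio at the 95% level, in 19 of 300 values tested, and chance alone gives about 1 in 20. Of these, 7 were in DT 5 DPA replicate 2: Atp5o (176 CPM), Cox6a1 (201), Cox7a1 (17.4), Cox7a2 (90.9), Ndufa3 (82.0), Ndufs1 (81.6) and Sdha (292 CPM) were above the other libraries. Another 6 were in DT 30 DPA replicate 2: the share of counts in nuclear members (0.822%), Cox5a (41.3 CPM), Cox5b (96.2), Cox6a1 (143), Cox7a1 (5.81) and Uqcrc1 (112 CPM). Both libraries carried enterocyte markers, at 6112 and 4677 CPM, and their part in these values was not tested.

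The remaining 6 were spread over other groups. Cox8a read 115 CPM in DT SD replicate 3. In DT SD replicate 1 Ndufs3 read 56.1 CPM and mt-Nd3 1280 CPM. Ndufa4l2 read 5.23 CPM in CTRL HFD replicate 2, Ndufv3 41.9 CPM in CTRL HFD replicate 4 and Cox6a2 19.8 CPM in STZ HFD replicate 3.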

How the results depend on the processing

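No called gene changed direction under any alternative tried. The nuclear median of STZ SD against CTRL SD went from 0.40 to -0.02 without the enterocyte and acinar-rich libraries, and that of STZ HFD against STZ SD from -0.16 to 0.02 without the enterocyte libraries and to 0.16 without both kinds. No member was called under any alternative in DT SD against CTRL SD, DT HFD against CTRL HFD, CTRL HFD against CTRL SD or either interaction. DESeq2 called 4 at 5 DPA against CTRL, 7 in STZ SD against CTRL SD, 23 in STZ HFD against CTRL HFD and 18 in DT HFD against DT SD. The acinar covariate gave 1, 4 and 2 in the first, the third and the last of these. For 30 against 5 DPA, leaving out the enterocyte libraries leaves 1 library at 5 DPA, so that no count is given. Without the enterocyte libraries the count was 6 for STZ HFD against CTRL HFD and 22 for DT HFD against DT SD, and with acinar-rich libraries also left out 0 and 18. Without the low-count filter it was 5 for 30 against 5 DPA and 0 for STZ HFD against CTRL HFD, and with the compared groups alone 14 and 0.

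With the replicate number as a block the count was 0 for STZ HFD against CTRL HFD, 6 for 30 against 5 DPA and 9 for DT HFD against DT SD. Libraries share only a number: their same-number correlations ran from -0.12 to 0.65, and in no comparison were all above 0.1. Leaving out 1 library gave 0 to 11 at 5 DPA against CTRL, 0 to 4 at 30 DPA against CTRL (4 without CTRL replicate 3), 1 to 10 for 30 against 5 DPA, 0 to 13 in STZ SD against CTRL SD (13 without STZ SD replicate 2, 3 without STZ SD replicate 3), 0 to 15 in STZ HFD against CTRL HFD, 0 to 16 in DT HFD against DT SD and 0 to 5 in STZ HFD against STZ SD. Where this left few libraries in a group, the spread was taken from all groups. Cox4i2, Cox7a1, Cox6b2 and Atp5s are at a few CPM, where counting error weighs most.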

Other observations

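The library with conflicting labels, in no comparison, had 14288356 counts. Nuclear members held 0.823% and mitochondrially encoded members 5.49% of them, a ratio of 6.68.

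Sdha and Cox4i1, chosen after their values were seen, parted in 3 STZ libraries. STZ SD replicate 3 read 140 CPM for Sdha and 261 CPM for Cox4i1, STZ HFD replicate 2 read 140 and 302 CPM, and STZ HFD replicate 4 read 151 and 259 CPM. These are the lowest Sdha values of all 33 libraries. Acinar markers held 26.2% of the counts of STZ SD replicate 3 and 54.0% of those of STZ HFD replicate 4, but 2.95% in STZ HFD replicate 2. Their part in these values was not tested.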
